A study of Mus musculus with 2 samples.

Results

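The genes described here encode integrin subunits, collagens, laminins, matrix metalloproteases, ADAM and ADAMTS proteases and the tissue inhibitors of metalloproteases, read in control and in Tubastatin A (TSA)-treated Treg cells. They were chosen by their gene symbols, which took 172 of the 23282 rows that the authors deposited, and the set was proposed with earlier results of the same libraries known. The rows held 27 integrin subunits (18 α and 9 β chains), 55 matrix genes (44 collagen and 11 laminin chains) and 85 genes of metalloproteases and inhibitors (23 MMP, 34 ADAM, 19 ADAMTS, 5 ADAMTS-like and 4 TIMP genes). The other 5 rows carry a matching symbol but encode other products, and their values are given with the integrin partners.

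Naïve CD4+ T cells were purified from the spleens of wild-type C57BL/6 mice with a magnetic isolation kit meant to remove other cells. They were activated through CD3 and CD28 with TGF-β1, IL-2 and antibodies to IFN-γ and IL-4, with DMSO (control) or with 10 μM TSA. The authors describe TSA as a selective inhibitor of the deacetylase HDAC6, and report a slight rise in histone H3 acetylation at doses up to 10 μM. RNA was taken on day 1 from 1 culture of each kind, and whether cells of several animals were combined is not given in the sources used here. Sequencing used 2 QuantSeq libraries, a method that reads polyadenylated transcripts from their 3′ end. Read counts of genes are therefore not scaled to transcript length.

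Integrins are αβ heterodimers that link the cytoskeleton to ligands on other cells or in the extracellular matrix, and lymphocytes use them to adhere, to migrate and to form synapses. A chain reaches the cell surface only with a partner, so the β2 chain (Itgb2) serves the leukocyte integrins, β7 (Itgb7) the mucosal ones and β1 (Itgb1) most receptors for matrix. Collagens and laminins are products mainly of stromal, epithelial and endothelial cells, MMP and ADAMTS proteases cut matrix, ADAM proteases release the outer parts of membrane proteins, and TIMP proteins inhibit these enzymes.

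Each deposited value was the log2 of a normalized count plus 1, and the reads behind it were recovered from the steps between low values. The libraries held 10846045 (control) and 10432333 (TSA) reads on genes, and 51 of the 172 members had no read in either of them. A difference is the TSA value minus the control value on this log2 scale, and a ratio is TSA over control in normalized counts, with an exact Clopper-Pearson 95% interval. Such an interval covers counting error only, and it may be too narrow even for that, because PCR copies could not be told apart. It compares these 2 libraries, not the conditions, and no value here has a replicate check. Because the choice of the genes used the same difference, the values are a description and carry no test. Lower RNA per cell and fewer cells of a kind cannot be told apart in such bulk RNA.

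The T cell markers Cd3d, Cd3e, Cd3g, Cd4, Cd5 and Lck summed to 14371 control and 14447 TSA reads. The lists for other cells were small, with 157 and 168 reads for CD8 T or NK cells, 16 and 27 for B cells, 58 and 43 for myeloid cells, 40 and 74 for platelets, 111 and 135 for fibroblasts, 269 and 527 for endothelial cells and 69 and 74 for epithelial cells.

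Members were called well read at a log2 value of 4 or more in at least 1 library, which held for 43, and weakly read below it in both, which held for 129. Nearest to this limit, Lamc3 (highest value 4.01) and Adamtsl4 (4.08) were just inside, and Adam23 and Mmp15 (both 3.90) just outside. For counts of differences past 2-fold, the threshold in the study's methods, at least 10 reads in 1 library were required, and 55 members met this. Of these, 22 were past 2-fold higher in the TSA library and 2 lower. Among all 12164 rows with that many reads, 14.7% were past 2-fold, 11.5% higher and 3.15% lower. A row that met the requirement only through its TSA reads had to differ, so these counts do not speak for the whole set. Among the 43 well-read members 12 were higher and 2 lower, beside 8.84% and 2.72% of all well-read rows. These counts have the same limit, because a member can be well read through 1 library alone. Col4a1 was so through TSA (0 and 22 reads) and Lamc3 through control (15 and 4 reads). The counting interval left out a ratio of 1 for 31 of the 55, beside 56.1% of all rows with that many reads.

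**Figure D1:**
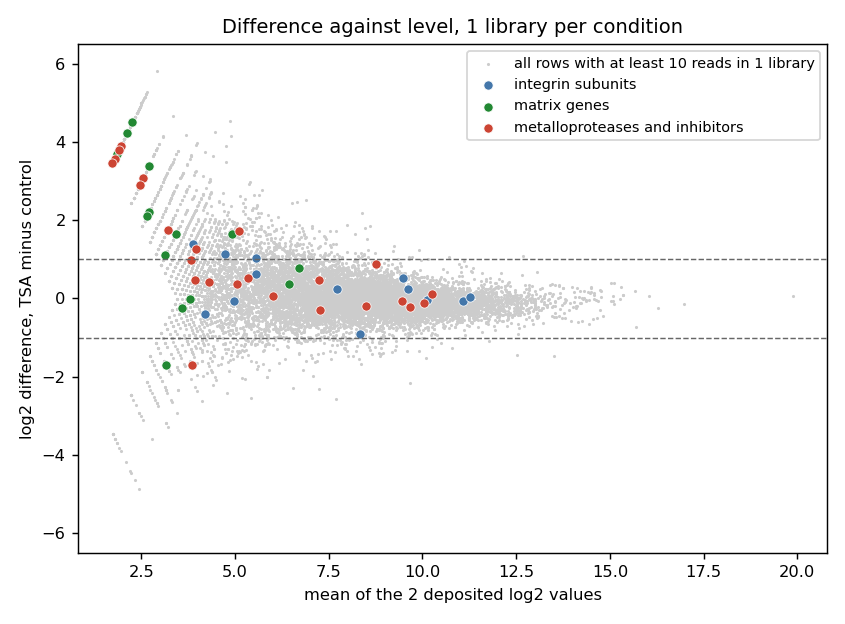
The vertical axis is the log2 difference (TSA minus control) and the horizontal axis the mean of the deposited log2 values; grey points are the 12164 rows with at least 10 reads in 1 library, coloured points the members of the 3 classes, and dashed lines mark 2-fold. Differences of over 2 sit at low means, up to 4.51 for Col4a1, and at high means Itgav (-0.91) and Adam15 (0.88) lie apart from the members near 0.

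For 4 well-read members whose counting interval left out 1, the promoter is shown from RefSeq (GRCm38.p6) as 300 bases on the strand of the gene, 250 before and 50 after its start. They are Itgb7 at chr15:102231886-102232185 (minus strand), Itgav at chr2:83724147-83724446 (plus), Adam15 at chr3:89349979-89350278 (minus) and Timp1 at chrX:20869916-20870215 (plus), and they were picked after the values were seen, as 2 receptor chains, a protease and an inhibitor that differed in direction. Capitals mark matches on either strand to a SMAD element (CAGAC, the letters bound by the factors of TGF-β signalling), a GC box (GGGCGG), an AP-1 site (TGANTCA) and the CCAAT box. A search for the TATA box used TATAAA.
Itgb7: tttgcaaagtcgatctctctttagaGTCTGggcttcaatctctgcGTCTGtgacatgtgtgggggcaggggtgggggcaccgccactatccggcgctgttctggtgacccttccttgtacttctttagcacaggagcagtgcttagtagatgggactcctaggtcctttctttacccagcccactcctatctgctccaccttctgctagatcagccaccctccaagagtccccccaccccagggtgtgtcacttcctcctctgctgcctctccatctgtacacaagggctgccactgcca
Itgav: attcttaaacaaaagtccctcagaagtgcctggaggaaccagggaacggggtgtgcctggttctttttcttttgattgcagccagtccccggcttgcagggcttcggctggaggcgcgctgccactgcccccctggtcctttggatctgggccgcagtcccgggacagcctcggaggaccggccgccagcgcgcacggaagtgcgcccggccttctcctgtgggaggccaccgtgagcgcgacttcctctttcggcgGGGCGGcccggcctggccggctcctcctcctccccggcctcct
Adam15: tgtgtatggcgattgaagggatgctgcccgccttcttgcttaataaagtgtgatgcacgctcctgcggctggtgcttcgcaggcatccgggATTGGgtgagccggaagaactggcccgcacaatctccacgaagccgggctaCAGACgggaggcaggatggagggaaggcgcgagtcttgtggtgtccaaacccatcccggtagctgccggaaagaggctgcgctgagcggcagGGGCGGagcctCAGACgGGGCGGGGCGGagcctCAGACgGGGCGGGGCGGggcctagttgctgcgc
Timp1: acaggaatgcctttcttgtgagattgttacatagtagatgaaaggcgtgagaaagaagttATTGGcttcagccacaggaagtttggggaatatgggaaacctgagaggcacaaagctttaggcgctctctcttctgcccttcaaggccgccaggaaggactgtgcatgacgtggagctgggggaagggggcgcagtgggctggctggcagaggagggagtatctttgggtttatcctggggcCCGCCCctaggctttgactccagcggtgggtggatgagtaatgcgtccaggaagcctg

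The Itgb7 window held 2 SMAD elements and no GC box, and the Itgav window 1 GC box. The Adam15 window held 3 SMAD elements, 5 GC boxes and 1 CCAAT box, and neighbouring GC boxes in it share a base. The Timp1 window held 1 GC box and 1 CCAAT box. None of the 4 held an AP-1 site or a TATA box. Their GC content was 56.3% (Itgb7), 67.3% (Itgav), 65.3% (Adam15) and 55.0% (Timp1), beside a median of 52.7% over all 32851 promoters in the table. Among those promoters, 49.6% held the SMAD letters, 35.7% the GC box, 7.81% the AP-1 letters, 37.4% the CCAAT box and 13.6% the TATA box. The table had an entry for 115 members, and 30 promoters belonged to 27 of the 43 well-read members. Of these, 53.3% held the SMAD letters, 66.7% the GC box, 6.67% the AP-1 letters, 33.3% the CCAAT box and 0 the TATA box. A match is a description of letters, and no binding was measured.

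Among the integrin subunits, the chains with the most reads were nearly level between the libraries, while the mucosal chains Itgb7 and Itgae were higher and the αV chain Itgav was lower in the TSA library. Of 13 subunits with at least 10 reads, 3 were past 2-fold higher and none lower, beside 11.5% and 3.15% of all rows with that many reads. Itga10 (8 and 23 reads) met the requirement through the TSA library alone, and 2 of 12 subunits were past 2-fold with 10 reads in both libraries. The median difference of the 13 subunits was 0.23, beside 0.01 for all rows. That median was 0.13 with 10 reads in both libraries, 0.04 at a mean normalized count of at least 50 and 0.04 with the integrin-named rows of other products counted in. With a pseudocount of 5, Itgae (0.99) and Itgb4 (0.95) fell short of 2-fold and 1 remained past it, and no subunit had its whole interval beyond 2-fold. The interval left out 1 for 7 of the 13, with 6 above and 1 below, a share near the 56.1% of all rows.

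Itgal and Itgb2 encode the chains of LFA-1, the leukocyte integrin that binds ICAM-1. Itgal had 2406 control and 2489 TSA reads, a difference of 0.04 and a ratio of 1.02 (0.968 to 1.08). Itgb2 had 2214 and 2125 reads, a difference of -0.07 and a ratio of 0.950 (0.895 to 1.01). For both chains the interval held 1. The other α partners of β2 were weakly read, with 7 and 9 reads for Itgam, 4 and 0 for Itgax and 1 and 0 for Itgad, the α chains of myeloid integrins.

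Itgb7 pairs with Itga4 in the gut-homing receptor α4β7 and with Itgae in αEβ7, the receptor for E-cadherin, whose α chain is known as a TGF-β-induced gene in T cells. Itgb7 (15:102215995-102231944, minus strand) had 598 control and 858 TSA reads, a difference of 0.51 and a ratio of 1.42 (1.28 to 1.58). Itgae (11:73090583-73147446, plus strand) had 17 and 39 reads, a difference of 1.14 and a ratio of 2.27 (1.26 to 4.28). Itga4 had 194 and 231 reads, a ratio of 1.18 (0.970 to 1.43) whose interval held 1. Both chains of αEβ7 thus had an interval wholly above 1, with Itgae the chain with fewer reads. The annotated span of Itgae overlaps Haspin on the opposite strand, which had 183 and 111 reads, and whether reads were counted by strand is not given in the sources used here. Itga4 overlaps Cerkl (13 and 19 reads) in the same way.

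Itgav (2:83724397-83806916, plus strand) encodes αV, which pairs with β1, β3, β5, β6 and β8 in receptors for vitronectin, fibronectin and latent TGF-β. It had 437 control and 234 TSA reads, a difference of -0.91 and a ratio of 0.530 (0.450 to 0.623), short of 2-fold on the deposited scale. Of the 13 subunits it was the only one with an interval wholly below 1. Its β partners did not follow it. Itgb1 had 1123 and 1113 reads, a ratio of 0.981 (0.903 to 1.07). Itgb3 had 37 and 58 reads, a difference of 0.62 and a ratio of 1.55 (1.01 to 2.41). The other β partners were weakly read, with 1 and 9 reads for Itgb5, 1 and 8 for Itgb6 and 0 and 3 for Itgb8, the chain known for activating latent TGF-β on T cells.

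Itga6, Itga3 and Itgb4 belong to laminin receptors. Itga6 had 721 control and 853 TSA reads, a difference of 0.23 and a ratio of 1.17 (1.06 to 1.30). Itgb4, whose only partner is Itga6, had 32 and 67 reads, a difference of 1.03 and a ratio of 2.07 (1.34 to 3.27). Both chains of α6β4 were higher in the TSA library. Itga3 had 31 and 30 reads, a ratio of 0.958 (0.560 to 1.64). Itga10, a chain of a collagen receptor, had 8 and 23 reads, a difference of 1.40 and a ratio of 2.85 (1.23 to 7.36). Its span overlaps the protein-coding Gm42957 on the same strand, and whether reads are shared was not tested. Itga2b, the α chain of the platelet fibrinogen receptor, had 20 and 15 reads, a ratio of 0.743 (0.354 to 1.53). Of the 8 platelet markers, 4 had more reads in the TSA library (Gp1bb 6 and 33, Pf4 18 and 24, Ppbp 8 and 11, Gp9 1 and 3), 2 had fewer (Gp1ba 6 and 3, Gp5 1 and 0), and Gp6 and Treml1 had none. The part of platelet RNA in the values of Itga2b and Itgb3 was not tested.

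**Figure D2:**
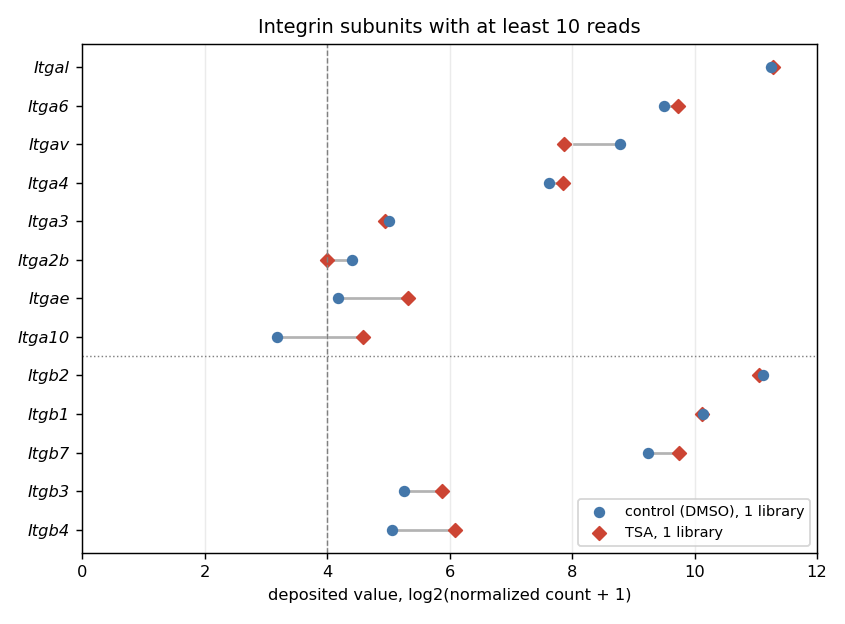
Each line joins the deposited log2 values of 1 integrin subunit in the control (circle) and TSA (diamond) library, with α chains above the dotted line, β chains below it and the level of 4 dashed. Itgav is displaced to the left in the TSA library, and Itgae, Itga10 and Itgb4 to the right by more than 1.

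The remaining 14 subunits had under 10 reads in both libraries, and 3 of them, Itga1, Itga11 and Itgb2l, had none. Beside those named above, Itga5 of the fibronectin receptor had 5 and 8 reads, Itga7 had 1 and 6, Itga8 had 0 and 3, Itga9 had 0 and 2 and Itga2 had 0 and 1. The 14 weakly read subunits summed to 20 control and 49 TSA reads, a ratio of 2.43 (1.42 to 4.31), and 9 of the 11 with a read had more in the TSA library. Over all 4220 weakly read rows with a read, 66.5% had the higher normalized count in the TSA library. The summed ratio of those rows was 1.81 (1.77 to 1.85), from 10344 and 18906 reads.

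Of 24 known αβ pairs, 10 had both chains at 10 reads or more in both libraries. Itgb1 has 12 α partners, and 4 of them (Itga3, Itga4, Itga6 and Itgav) reached 10 reads in both libraries. The 5 rows of other products did not stand apart. Itgb1bp1, the ICAP-1 protein that binds the β1 tail, had 475 and 472 reads, Itgb3bp, a centromere protein, 139 and 133, and Col4a3bp, a ceramide transfer protein, 425 and 377. Itgb1bp2 had 2 reads in each library and Itgbl1 none.

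Genes that act on integrins from inside the cell were examined as lists, to be read beside the 11.5% higher and 3.15% lower, and the median of 0.01, of all rows with at least 10 reads. Of 23 genes for inside-out activation, 20 had at least 10 reads, 1 was past 2-fold higher and none lower, with a median difference of 0.09. Rasgrp2, an exchange factor for the GTPase Rap1, had 119 control and 314 TSA reads, a ratio of 2.61 (2.11 to 3.25). Rap1b had 3587 and 3647 reads, Tln1, which encodes the talin that binds the β tail, 2301 and 2501, and the Rap1 exchange factor Rapgef1 2552 and 2024. Among 27 genes for signalling from bound integrins, 21 had at least 10 reads, none was past 2-fold higher and 1 was lower (3.15% of all rows), with a median of -0.16. That gene was Tns1, an adhesion scaffold, with 460 and 198 reads and a ratio of 0.426 (0.359 to 0.505). Actn4 (4876 and 4106 reads), Actn1 (3443 and 4121) and Ilk (3155 and 2718) had the most reads of that list.

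Ligands on cells included 8 genes with at least 10 reads of 12, 3 past 2-fold higher and none lower, beside 11.5% and 3.15% of all rows, with a median of 0.41 beside 0.01. Those 3 had few reads, with 11 and 30 for F11r, 2 and 19 for Jam3 and 1 and 16 for Icam4, and the last of these met the requirement, like Jam3, through the TSA library alone. Thy1 had 2427 control and 3847 TSA reads, a ratio of 1.57 (1.49 to 1.65). Cd47 had 2138 and 2276, and Icam2, a ligand of LFA-1, 396 and 451. Icam1, the main LFA-1 ligand, had 401 and 446 reads, a ratio of 1.10 (0.960 to 1.26).

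Of the 55 matrix genes, 47 were weakly read and 8 well read, and 15 had no read in either library. Another 15 had at least 10 reads in 1 library, of which 10 were past 2-fold higher and 1 lower, beside 11.5% and 3.15% of all rows with that many reads. For 9 of these 10 the control library held under 10 reads, so that they met the requirement only through their TSA reads. The interval left out 1 for 11 of the 15, beside 56.1% of all rows. All 55 together had 283 control and 521 TSA reads.

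Col15a1, which encodes a basement membrane collagen, had the most reads of the collagens, 78 in the control and 135 in the TSA library, a difference of 0.77 and a ratio of 1.71 (1.29 to 2.29). Col27a1, a fibrillar collagen of cartilage, had 16 and 53 reads, a difference of 1.65 and a ratio of 3.28 (1.85 to 6.15). These were the only collagens besides Col11a2 (13 and 13 reads) with 10 reads in the control library. Col11a2 had a ratio of 0.990 (0.423 to 2.32).

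Chains that assemble into 1 collagen molecule did not share a call for types I, IV, VI and XI. There, 1 chain was past 2-fold higher, and the others were not or had under 10 reads in both libraries. Whether the chains differ from each other was not tested. Of the type V chains, Col5a1 and Col5a2 were past 2-fold higher, both counted through their TSA reads alone and Col5a1 with an interval that held 1. The type V chain Col5a3 had 0 and 2 reads. Type I collagen is built from Col1a1 and Col1a2 chains. Col1a1 (11:94936224-94953042, plus strand) had 1 and 20 reads, a ratio of 19.8 (3.17 to 821), while Col1a2 had 9 and 0. Col3a1, which stromal cells make with type I collagen, had no read in either library. Col4a1 had 0 and 22 reads, at least 7.26-fold higher. Here and below, such a fold sets the TSA reads, taken as exact, against a floor of 3 reads in the control library. The counting interval of each such gene began below this fold, at 5.42 for Col4a1. Its partner in type IV collagen, Col4a2, had no read in either library. Col5a1 had 5 and 12 reads, a ratio of 2.38 (0.779 to 8.61) and a difference of 0.76 with a pseudocount of 5, and Col5a2, which joins it in type V collagen, 0 and 12, at least 3.96-fold higher.

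The other 4 collagens past 2-fold also had few reads. Col12a1 had 0 and 18 reads, at least 5.94-fold higher, and Col19a1 0 and 13, at least 4.29-fold higher. Col6a3 had 2 and 13 reads, a ratio of 6.44 (1.46 to 58.7), while its partners Col6a1 and Col6a2 had no read and 2 and 0. Col11a1, a partner of Col11a2, had 2 and 12 reads, a ratio of 5.94 (1.32 to 54.7). In all, 8 members with at least 10 TSA reads had no control read, Col4a1, Col12a1, Col19a1, Col5a2, Adam23, Adamts20, Adamtsl3 and Mmp20. Among all rows with at least 10 reads in 1 library, 2.34% had no control read, and 285 rows had none in the control library with at least 10 in the TSA library, against 17 the other way round.

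Laminins are αβγ trimers of basement membranes. Lamc1, the most widely used γ chain, had 75 control and 99 TSA reads, a ratio of 1.31 (0.959 to 1.79). Lama5 had 5 and 18 reads, a difference of 1.65 and a ratio of 3.56 (1.28 to 12.3). Lamc3 went the other way, with 15 and 4 reads, a difference of -1.69 and a ratio of 0.264 (0.0638 to 0.829). Lamb3 had 12 and 10 reads, a ratio of 0.825 (0.319 to 2.08), and overlaps Hsd11b1 (21 and 22 reads) on the opposite strand. Lamb1 had 0 and 9 reads.

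**Figure D3:**
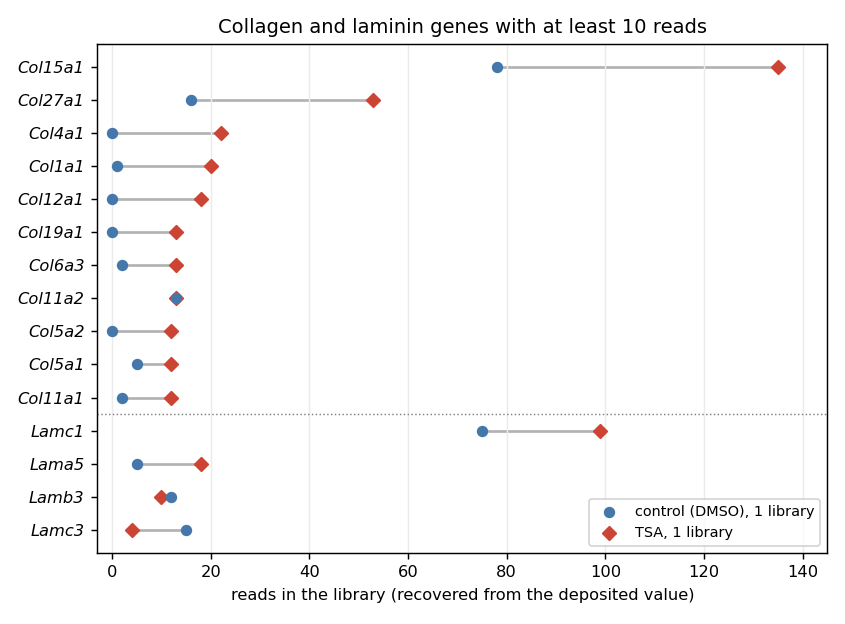
Each line joins the recovered reads of 1 collagen (above the dotted line) or laminin (below it) gene in the control (circle) and TSA (diamond) library. Col15a1 and Lamc1 had 75 reads or more in both libraries, and the other genes under 20 in the control library.

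The 47 weakly read matrix genes summed to 93 control and 152 TSA reads, a ratio of 1.62 (1.24 to 2.12), beside the 1.81 of all weakly read rows. With the level set at log2 3 the ratio was 1.08 (0.707 to 1.64), beside 1.90 for all rows below it, and at log2 5 it was 2.03 (1.62 to 2.57), beside 1.65, so its place against all rows changed with the level. Of the 32 with a read, 17 had more in the TSA library, and the other 15 had the lower normalized count there, 5 of them with equal reads. That share, 53.1%, lies beside the 66.5% of all weakly read rows. The fibroblast markers Fap, Twist1 and Twist2 had no read, Dcn had 1 and 0 and Lum 0 and 2, while Pdgfra had 0 and 7, Pdgfrb 0 and 6, Acta2 13 and 36 and Tagln 97 and 84. Of the endothelial list, Tek, Tie1 and Emcn had no read, Cdh5 had 0 and 4 and Kdr 0 and 2, and the list's sum was carried by Pecam1 (144 and 234) and Egfl7 (125 and 287), which lymphocytes can also express. The isolation kit is meant to remove such cells, and the part of their RNA in the matrix reads was not tested.

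The ratio of weakly read genes also moved with the length of the gene. When the 3387 weakly read protein-coding genes with a read and a known span were divided by annotated span into 5 groups of nearly equal size, the summed ratio was 1.62 (1.52 to 1.72), 1.64 (1.54 to 1.75), 1.64 (1.55 to 1.74), 1.96 (1.84 to 2.08) and 2.47 (2.32 to 2.63) from the shortest to the longest group. The weakly read matrix genes had a median span of 91.3 kb and the weakly read metalloprotease genes 45.3 kb, beside 22.9 kb for all these genes. Of the 32 matrix genes, 16 lay in the group of the longest genes (95.4 to 2271 kb), with 36 and 79 reads. The 8 members without a control read had a median span of 140 kb. The part of span in the members' ratios was not tested.

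**Figure D4:**
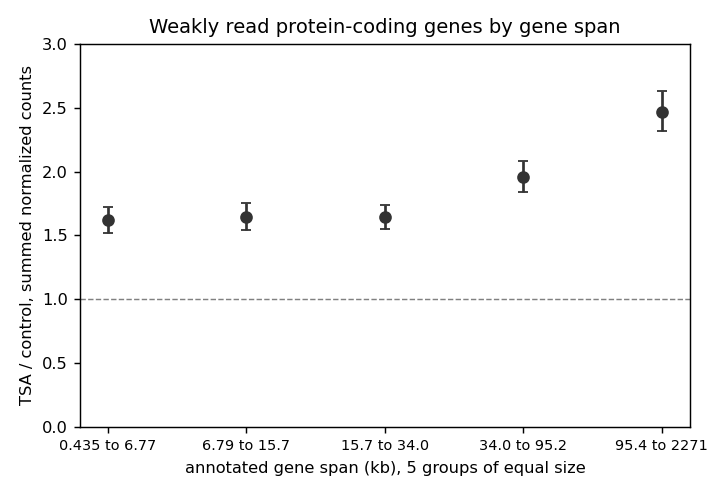
Points are the summed TSA/control ratio of normalized counts of weakly read protein-coding genes in 5 groups of annotated gene span (kb), and bars the 95% counting interval. The 3 groups of shorter genes sit between 1.62 and 1.64, and the longest at 2.47.

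Other matrix proteins and the enzymes that modify collagen were examined as a list of 36 genes, of which 18 had at least 10 reads, 9 were past 2-fold higher and none lower, beside 11.5% and 3.15% of all rows. Only Agrn and Plod1 of these 9 had 10 control reads, and the other 7 met the requirement through the TSA library alone. Agrn, which encodes agrin, a proteoglycan of basement membranes and synapses, had 14 control and 113 TSA reads, a ratio of 7.99 (4.57 to 15.1). Fbn2, a microfibril protein, had 4 and 46 reads, a ratio of 11.4 (4.16 to 43.6), and Fn1, which encodes fibronectin, 3 and 33, a ratio of 10.9 (3.42 to 55.5). Sparc, a collagen-binding protein, had 0 and 21 reads, at least 6.93-fold higher. The others past 2-fold were Nid2 (6 and 20 reads), Hspg2 (1 and 13) and Spp1 (4 and 19), and the collagen hydroxylases P4ha2 (6 and 29) and Plod1 (43 and 91). The 3 with the most reads were P4hb, the β subunit of prolyl hydroxylase, with 2593 and 2041, Loxl3 with 614 and 587 and Plod3 with 441 and 557. The collagen chaperone gene Serpinh1 and the crosslinking enzyme genes Lox and Loxl1 had no read in either library.

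Among metalloproteases, the sheddases with the most reads differed little, Adam15 was higher and the inhibitor gene Timp1 lower in the TSA library. Of 85 genes, 32 had no read and 24 had at least 10 in 1 library, of which 9 were past 2-fold higher and 1 lower, beside 11.5% and 3.15% of all rows with that many reads. For 8 of these 9 the control library held under 10 reads, so that only their TSA reads met the requirement, and with 10 reads in both libraries Mmp19 was the 1 of 14 past 2-fold. The interval left out 1 for 13 of the 24, with 11 above and 2 below, a share near the 56.1% of all rows.

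Adam10 and Adam17 encode the main sheddases of T cells, which release Notch, L-selectin and TNF among others. Adam10 had 872 control and 751 TSA reads, a difference of -0.23 and a ratio of 0.853 (0.772 to 0.941). Adam17 had 707 and 684 reads, a ratio of 0.958 (0.861 to 1.07), and overlaps Iah1 (158 and 202 reads) on the opposite strand. Adam19 had 1170 and 1263 reads, a ratio of 1.07 (0.986 to 1.16). Only Adam10 of these 3 had an interval that left out 1.

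Adam15 (3:89338542-89349996, minus strand) encodes a protease whose disintegrin domain binds integrins. It had 316 control and 586 TSA reads, a difference of 0.88 and a ratio of 1.84 (1.60 to 2.11). Adam8, a protease of activated leukocytes, had 9 and 23 reads, a difference of 1.25 and a ratio of 2.53 (1.13 to 6.21). Adam22, which lacks protease activity, had 33 and 48 reads, a ratio of 1.44 (0.906 to 2.32), and Adam9 16 and 22, a ratio of 1.36 (0.683 to 2.77). Adam1a (12 and 17 reads) overlaps Mapkapk5 on the same strand, and whether its reads are shared was not tested. Adam23 had 0 and 14 reads, at least 4.62-fold higher, while Adam12 had 9 and 0.

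ADAMTS genes encode secreted proteases that cut proteoglycans, procollagen or microfibrils. Adamts6 had 128 control and 178 TSA reads, a difference of 0.46 and a ratio of 1.38 (1.09 to 1.74). Adamts10 had 168 and 139 reads, a ratio of 0.819 (0.650 to 1.03). Adamts3, a procollagen protease, had 1 and 16 reads, a ratio of 15.8 (2.46 to 664). Adamts20 had 0 and 13 reads, at least 4.29-fold higher. Of the ADAMTS-like genes, which encode no protease, Adamtsl4 had 4 and 16 reads, a ratio of 3.96 (1.28 to 16.3), and Adamtsl3 0 and 11, at least 3.63-fold higher.

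Among MMP genes, Mmp24, a membrane-bound enzyme, had the most reads, 385 and 338, a ratio of 0.869 (0.749 to 1.01), and its span overlaps BC029722 on the opposite strand, which had 430 and 363. Mmp19 (10:128790910-128800824, plus strand) had 18 and 62 reads, a difference of 1.71 and a ratio of 3.41 (1.99 to 6.13). Tmem198b overlaps it on the opposite strand and had 16 and 57 reads, nearly the same numbers, and whether the reads of these 2 genes are shared was not tested. Mmp11 had 62 and 65 reads, a ratio of 1.04 (0.722 to 1.49), and overlaps Chchd10 (1450 and 1768 reads).

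The membrane-bound Mmp14 had 28 and 37 reads, a ratio of 1.31 (0.779 to 2.22), and Mmp17 9 and 19, a difference of 0.99 and a ratio of 2.09 (0.901 to 5.25). Mmp15 had 1 and 14 reads, a ratio of 13.9 (2.11 to 586), and Mmp20, an enzyme of tooth enamel, 0 and 10, at least 3.30-fold higher. The gelatinase genes Mmp2 and Mmp9, which activated leukocytes and stroma are known for, had no read in either library.

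Of the inhibitors, Timp2 had 1095 control and 1015 TSA reads, a ratio of 0.918 whose interval, from 0.842, held 1 at its upper end. Timp1 (X:20870166-20874735, plus strand) had 25 and 7 reads, a difference of -1.71 and a ratio of 0.277 (0.101 to 0.659). Its span overlaps Syn1 on the opposite strand, which had 98 and 134 reads. Timp3 had 2 and 6 reads and overlaps Syn3 (27 and 37). Of the members with at least 10 reads in 1 library, Timp1 and Lamc3 were those past 2-fold lower. Below that requirement, Col1a2 and Adam12 each had 9 and 0 reads, with a counting interval of the ratio that ended at 0.502.

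**Figure D5:**
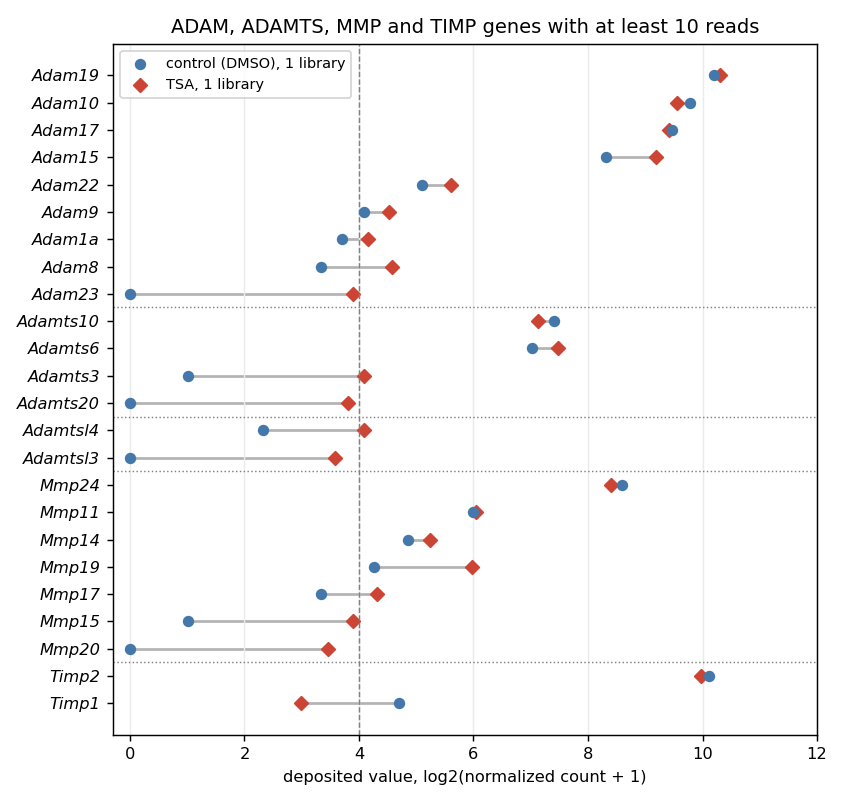
Each line joins the deposited log2 values of 1 gene in the control (circle) and TSA (diamond) library, with dotted lines between ADAM, ADAMTS, ADAMTS-like, MMP and TIMP genes and the level of 4 dashed. Adam19, Adam10, Adam17 and Timp2 have nearly equal values, Adam15 and Mmp19 lie to the right and Timp1 to the left in the TSA library.

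The 66 weakly read genes of this class summed to 47 control and 155 TSA reads, a ratio of 3.27 (2.34 to 4.63), above the 1.81 of all weakly read rows. With the level set at log2 3 the ratio was 1.84 (1.15 to 3.0), beside 1.90 (1.82 to 1.97) for all rows below that level, and at log2 5 it was 2.21 (1.78 to 2.76), beside 1.65 (1.62 to 1.68). The excess over all weakly read rows was thus not seen at the lower level. Of the 34 with a read, 25 (73.5%) had more in the TSA library, beside 66.5% of all weakly read rows. Below 10 reads and without a control read were, among others, Adam2, Adam3 and Mmp8 with 9 TSA reads each, Adamts5 with 8 and Mmp16 with 6. The known sites of Adam2 and Adam3 are male germ cells, and Mmp8 is an enzyme of neutrophils, whose markers had few reads, 4 and 0 for S100a8, 1 and 3 for Mpo and none for S100a9 and Elane.

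Genes that carry ADAM10 and ADAM17 to the surface or restrain them were a list of 14, of which 10 had at least 10 reads, 2 were past 2-fold higher and none lower, beside 11.5% and 3.15% of all rows, with a median difference of 0.14. Reck, a membrane inhibitor, had 5 and 14 reads, a ratio of 2.77 (0.944 to 9.84), and Tspan10, a tetraspanin partner of ADAM10, 0 and 14, at least 4.62-fold higher, so both met the requirement through the TSA library alone. Furin, the convertase that activates these proteases, had 3693 and 3763 reads, the iRhom partner Frmd8 806 and 969 and Tspan5 494 and 404.

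Of 16 proteins known to be shed from T cells, all had at least 10 reads in 1 library, 2 were past 2-fold higher and 1 lower, beside 11.5% and 3.15% of all rows, with a median of 0.14. Tnfsf11, which encodes RANKL, had 195 control and 92 TSA reads, a ratio of 0.467 (0.361 to 0.602). Fasl had 17 and 38 reads, a ratio of 2.21 (1.22 to 4.18), and Jag1, which met the requirement through the TSA library alone, 5 and 13, a ratio of 2.57 (0.861 to 9.22). Il2ra had 8851 and 7511 reads, a ratio of 0.840 (0.815 to 0.867), and Cd44, a receptor for hyaluronan, 2168 and 2257. Tnfrsf1b, which encodes TNF receptor 2, had 2379 and 1455, a ratio of 0.606 (0.567 to 0.647). These are RNA levels, and shedding itself was not measured.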

How the data were processed

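RNA was measured in 1 control and 1 TSA library of Treg cells on day 1, assigned from the labels, with no replicates. The authors prepared QuantSeq libraries and sequenced them as single-end 75-nt reads. The submitters' processing notes name Bowtie2, bedtools and mm10; settings, annotation, normalization and strand use in counting are not given in the sources used here. The values the authors deposited are log2 of a normalized count plus 1 (found from the values). Steps of 1.005 (control) and 0.995 (TSA) normalized counts per read gave the reads, and 99.9% and 99.8% of values of 1 to 300 reads lay within 0.1 of a whole read. In the control library, 1940 rows at up to 0.016, all with TSA reads, were read as 0.

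Differences are TSA minus control as deposited, with a pseudocount of 1. Rows with at least 10 reads in 1 library were counted, past 2-fold. Intervals are exact Clopper-Pearson at 95%, and a fold against 0 used a floor of 3 reads. There is no p-value. The members, classes and gene lists were chosen with earlier results of these data known. Genes named are integrin subunits with 10 reads, other members at log2 4 or more or among the 5 with the most reads of their family, members past 2-fold or nearest the level of 4, and list genes past 2-fold or among the 3 with the most reads; others named were chosen after their values were seen. The T cell markers Trac, Trbc1 and Trbc2 were not analysed here. Positions and spans come from GENCODE M21 (GRCm38, the build mm10), promoters from RefSeq (GRCm38.p6). The recovery of reads, the calls and the intervals were tested on simulated data with counting error alone. The changed genes there had a mean normalized count of at least 50, where no member was past 2-fold, so calls at lower counts were not tested. Alternatives were the scaling, pseudocount, filter on low counts, threshold, use of the interval and the level that separates well-read genes; leaving out overlapping genes, and the sums for metalloproteases, were added after the data were seen. The software was scipy 1.17.1, numpy 2.4.6, matplotlib 3.10.9, pandas 2.3.3 and Python 3.11.15.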

Additional observations from a re-analysis of the deposited data

How the results depend on the processing

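The filter on low counts had the widest effect on the counts past 2-fold. Integrin subunits (3) gave 11 with no filter and 0 at a mean normalized count of at least 50, 1 with a pseudocount of 5, 5 at a 1.5-fold threshold and 0 when the whole counting interval had to lie beyond 2-fold. Matrix genes (11) gave 28 with no filter, 1 with 10 reads in both libraries, 0 at the mean of 50 and 5 by the whole interval. Metalloproteases and inhibitors (10) gave 32, 1, 0 and 6 in that order, and 8 without genes that overlap a protein-coding gene on the opposite strand. The median difference of weakly read matrix genes with 10 reads, 2.10, was 0.26 with no filter and -0.13 with 10 reads in both libraries, where only Col11a2 and Lamb3 remained. The median of the integrin subunits, 0.23, was 0.13 with 10 reads in both libraries, 0.04 at the mean of 50 and 0.04 with the other integrin-named products. A mean of 50, or a level of log2 3, left no gene for the matrix median. The summed ratio of weakly read matrix genes, 1.62, was 1.08 at a level of log2 3, and that of the metalloproteases, 3.27, was 1.84 at a level of 3 and 2.21 at 5. The filters and levels change which genes are counted. With a pseudocount of 5, Itgae (0.99), Itgb4 (0.95), Col5a1 (0.76) and Adam8 (0.99) fell short of 2-fold, and Col4a1 went from 4.51 to 2.43. All 24 members past 2-fold stayed past it under the 4 other scalings, while Itga3, Adam17, Itgb1 and Col11a2, each near 0, changed sign with total reads. The median of all genes was 0.085 with total reads and 0.015 as deposited. No paired analysis was possible because control and TSA cells each gave a single library, which also left no replicate to drop. Most members had under 10 reads in both libraries (117 of 172).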
